A study of Mus musculus with 32 samples.

Results

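The genes described here are a set of S-phase and mitosis genes of the mouse, 21 that copy DNA or prepare for it and 24 that carry the cell through mitosis. They were listed by name, and each was read from the probeset (the group of array probes scored together) that names that gene alone and has the highest mean over all 32 arrays. Of the 45 genes listed, 44 had such a probeset, 21 for replication and 23 for mitosis, among 19938 genes measured in the same way. The gene without one was Ccnb1, for which no value is given.

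The arrays came from 7 groups of mice of a mixed C57BL/6 and CBA background, per the study's methods, and ask how the loss of a Myd88 allele bears on B-cell leukemia that arises with a single Pax5 allele. Bone marrow of leukemic mice was measured in 6 Pax5+/- animals and in 6 Pax5+/-;Myd88+/- animals. The controls of those leukemias were B220low IgM- cells, proB and preB cells sorted from marrow of 4 healthy WT mice. The proB cells came from healthy mice of 4 genotypes, WT, Pax5+/-, Pax5+/-;Myd88+/- and Pax5+/-;Myd88-/-, with 4 arrays each. Pax5 encodes the transcription factor that fixes B-cell identity, and Myd88 an adaptor that carries signals from Toll-like and interleukin-1 receptors. Per the labels, the animals were housed free of specific pathogens for 2 months and thereafter in a conventional facility. The labels describe the proB samples as B220+ marrow cells taken by magnetic sorting. The methods describe proB cells of mice aged 2 to 3 weeks, grown on ST2 stromal feeder cells with 5 ng/ml IL7, for the first 3 of these genotypes, and no culture for Pax5+/-;Myd88-/- cells. No sort is named for the leukemic samples, which can hold other marrow cells. The labels give no age for the leukemic mice or for the mice of the sorted WT cells.

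A dividing cell first loads the Mcm2 to Mcm7 helicase onto its origins with the help of Cdc6 and Cdt1, a step called licensing. Cyclin E (Ccne1, Ccne2) and the transcription factor E2f1 drive entry into S phase, Cdc45 and the GINS complex switch the helicase on, DNA polymerase alpha and primase start each strand, and ribonucleotide reductase (Rrm1, Rrm2) and thymidylate synthase (Tyms) supply the nucleotides. Cyclins A and B with Cdk1 then bring on mitosis, Plk1 and the aurora kinases build the spindle, Bub1, Bub1b and Ttk hold the cell until every chromosome is attached, and Cdc20 and Ube2c help the anaphase-promoting complex to end it. In the marrow, large pre-B cells divide fast and use these genes. E2F factors act on many replication promoters, and the mitotic genes are known for promoters that pair a CHR element (cell cycle genes homology region) with CCAAT boxes.

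Promoter windows from RefSeq (build GRCm38.p6, 250 bases before to 50 after each gene's start) were matched for 36 of the 44 genes. They are shown for genes that the results below turn on, 4 of mitosis and 2 of replication, each read 5′ to 3′ on the strand of its gene, with the matched letters in capitals. The letters searched on both strands were TTTGGCGC, TTTCCCGC, TTTGCCGC or TTTCGCGC for E2F, TTTGAA or TTCGAA for the CHR, and CCAAT. The windows are Cdk1, chr10:69352863-69353162 on the minus strand; Ccnb2, chr9:70421505-70421804, minus; Ube2c, chr2:164769679-164769978, plus; Plk1, chr7:122159185-122159484, plus. Those of replication are Mcm3, chr1:20820263-20820562, minus, and Rrm2, chr12:24708004-24708303, plus.
Cdk1: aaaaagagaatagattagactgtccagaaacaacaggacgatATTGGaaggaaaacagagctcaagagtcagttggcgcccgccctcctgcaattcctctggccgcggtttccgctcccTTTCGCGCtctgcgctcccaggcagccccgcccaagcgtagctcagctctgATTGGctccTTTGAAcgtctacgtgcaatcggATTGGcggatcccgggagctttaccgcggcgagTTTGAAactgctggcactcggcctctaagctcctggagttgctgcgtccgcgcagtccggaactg
Ccnb2: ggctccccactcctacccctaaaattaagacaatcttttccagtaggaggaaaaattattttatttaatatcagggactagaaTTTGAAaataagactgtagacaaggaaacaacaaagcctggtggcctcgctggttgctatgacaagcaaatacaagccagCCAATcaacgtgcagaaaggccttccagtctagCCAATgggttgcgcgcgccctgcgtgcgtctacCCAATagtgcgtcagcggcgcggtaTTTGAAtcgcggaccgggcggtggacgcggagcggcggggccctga
Ube2c: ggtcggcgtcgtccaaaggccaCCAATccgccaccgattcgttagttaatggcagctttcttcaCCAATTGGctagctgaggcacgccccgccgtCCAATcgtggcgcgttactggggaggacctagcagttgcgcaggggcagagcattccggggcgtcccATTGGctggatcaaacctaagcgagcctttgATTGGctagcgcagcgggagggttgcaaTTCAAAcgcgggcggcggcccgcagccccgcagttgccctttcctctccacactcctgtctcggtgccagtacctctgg
Plk1: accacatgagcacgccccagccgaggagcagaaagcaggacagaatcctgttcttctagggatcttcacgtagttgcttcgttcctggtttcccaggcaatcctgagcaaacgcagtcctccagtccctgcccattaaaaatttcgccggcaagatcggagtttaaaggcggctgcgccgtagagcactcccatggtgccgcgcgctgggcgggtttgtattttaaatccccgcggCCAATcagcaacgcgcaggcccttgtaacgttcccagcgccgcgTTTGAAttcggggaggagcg
Mcm3: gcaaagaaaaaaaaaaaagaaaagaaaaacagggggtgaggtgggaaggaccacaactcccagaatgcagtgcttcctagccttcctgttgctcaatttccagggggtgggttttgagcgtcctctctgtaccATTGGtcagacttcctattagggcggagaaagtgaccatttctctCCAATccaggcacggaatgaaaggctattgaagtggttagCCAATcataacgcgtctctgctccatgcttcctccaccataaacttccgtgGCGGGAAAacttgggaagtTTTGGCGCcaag
Rrm2: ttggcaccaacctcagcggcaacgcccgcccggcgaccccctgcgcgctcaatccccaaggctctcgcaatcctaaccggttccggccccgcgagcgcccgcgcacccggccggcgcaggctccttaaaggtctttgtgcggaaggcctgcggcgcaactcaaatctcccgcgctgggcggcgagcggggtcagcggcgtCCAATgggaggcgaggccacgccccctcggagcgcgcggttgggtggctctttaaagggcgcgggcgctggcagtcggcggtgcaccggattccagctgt
In the Ube2c window a CCAAT and its reverse, ATTGG, overlap. Among the 19 mitosis genes with a window, 16 (84.2%) held a CHR match, 16 (84.2%) a CCAAT match and 15 (78.9%) both, against 19.4%, 37.9% and 7.70% of the 27025 promoters in the table. An E2F match was found in 1 mitosis window (5.26%), that of Cdk1. Of the 17 replication genes with a window, 7 (41.2%) held an E2F match, against 2.32% of all promoters, while 3 (17.6%) held a CHR and 11 (64.7%) a CCAAT match. The Mcm3 window holds 2 E2F matches and that of Rrm2 none of these letters besides 1 CCAAT. A match describes letters in a window and no binding was measured.

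Array values are on the log2 scale, so a difference of 1 is a 2-fold change, and array medians ran from 6.88 to 7.03. Each comparison was tested with limma across all probesets, and a gene is said to rise or fall where its adjusted p was under 0.05. The labels name every array a biological replicate without saying which mice shared a litter or culture, so p-values measure the spread between these arrays. On part of the probesets the arrays fall into 2 sets that no label names. The 10 arrays of Pax5+/- leukemia and sorted WT cells stand apart from the other 22, with 897 of 28944 probesets (3.10%) higher on each of the 10 than on any of the 22 and 872 (3.01%) lower. The mean of the sorted cells correlated at 0.9720 with that of the Pax5+/- leukemias and at 0.9414 with that of the WT proB cells. The mean of the Pax5+/-;Myd88+/- leukemias correlated at 0.9810 with that of the Pax5+/- proB cells and at 0.9764 with that of the Pax5+/- leukemias. Over all probesets the Pax5+/- leukemias were thus nearer to the other leukemias, across the sets, than to the sorted cells of their own set. Comparisons across the 2 sets, which include that between the leukemia genotypes, cannot be told apart from whatever divides the sets, while the other comparisons lie within a set. Myd88 itself measured 7.04 to 7.44 in proB cells with neither Myd88 allele, 8.51 to 8.78 with 1 allele and 9.21 to 9.35 in Pax5+/- proB cells, and 8.26 to 9.39 against 9.87 to 10.38 in the leukemias with and without the Myd88 deletion. Xist, made by female cells, was 12.29 to 12.52 in the proB groups with a Myd88 deletion and 5.32 to 6.11 in the others, so there sex and the Myd88 genotype cannot be told apart. It was 12.23 to 12.46 in the sorted WT cells, 5.44 to 9.72 in the Pax5+/- leukemias and 5.39 to 12.80 in the Pax5+/-;Myd88+/- leukemias, so sex also differs between sorted cells and both Pax5+/- leukemias and WT proB cells. WT proB arrays 1 and 3 correlated at 0.9982 and arrays 2 and 4 at 0.9979, against 0.9906 to 0.9912 for the other pairs of WT proB arrays. Such values were not confined to WT, as the pairs of Pax5+/-;Myd88-/- proB arrays correlated at 0.9969 to 0.998 and Pax5+/- proB arrays 2 and 4 at 0.9976. B-cell precursor markers averaged 9.94 to 11.7 in the Pax5+/-;Myd88+/- leukemias, 9.08 to 11.5 in the Pax5+/- leukemias and 11.4 or more in every sorted or proB array, with replicates 2 and 4 the lowest of both leukemia groups.

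To describe the genes together, the median over a class of each value minus that probeset's mean over the 32 arrays was taken per array, as a score with no test. The mitosis score averaged 0.18 ± 0.08 (SD, n = 4) in sorted WT cells, 0.18 ± 0.10 in WT proB cells, -0.03 ± 0.16 (n = 6) in Pax5+/- leukemias and -0.23 ± 0.28 (n = 6) in Pax5+/-;Myd88+/- leukemias. The replication score averaged 0.02 ± 0.13, 0.07 ± 0.03, 0.11 ± 0.19 and -0.12 ± 0.31 in the same order. In Pax5+/-, Pax5+/-;Myd88+/- and Pax5+/-;Myd88-/- proB cells the means were 0.01 ± 0.14, 0.04 ± 0.09 and -0.03 ± 0.06 for mitosis and -0.09 ± 0.18, -0.01 ± 0.14 and 0.07 ± 0.06 for replication. The SD was largest in the Pax5+/-;Myd88+/- leukemias in both classes, and the leukemia groups overlapped in both scores. In these bulk samples fewer dividing cells and less RNA per cell cannot be told apart. No sort is named for the leukemic samples, and the part of other marrow cells in their scores was not tested. Score differences between groups of different array sets cannot be told apart from whatever divides the sets.

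**Figure D1:**
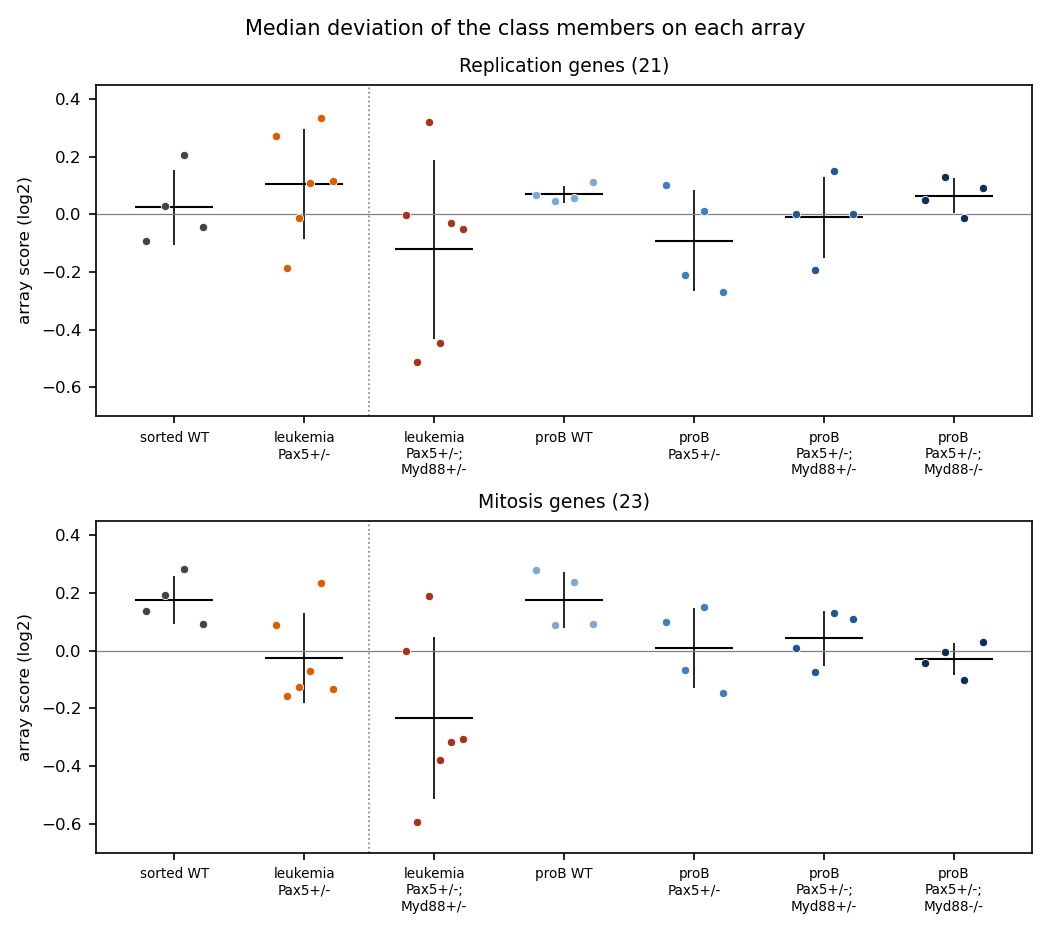
Array scores of the replication genes and of the mitosis genes (log2, each point an array, bar the group mean, line ± SD) in the 7 groups. The Pax5+/-;Myd88+/- leukemias spread the most, from -0.60 to 0.19 for mitosis and from -0.51 to 0.32 for replication.

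Single genes moved much further than the scores. Over the 7 group means, the range was 1.75 for Rrm2, 1.48 for the cyclin Ccnb2, 1.37 for the kinase Aurkb, 1.16 for Ccne1, 1.12 for the kinetochore protein Cenpf and 0.90 for the proliferation marker Mki67. It was as small as 0.27 for the survivin gene Birc5 and 0.30 for the chromatin assembly factor Chaf1b. Of these, Rrm2, Ccnb2, Aurkb and Ccne1 had their highest mean in the sorted cells, and Cenpf and Mki67 in WT proB cells. Of all 44 genes, 31 (70.5%) had their highest mean in a WT group, 17 in sorted and 14 in proB cells, against 39.5% of all genes. Of the 23 mitosis genes, 22 (95.7%) had their lowest mean in a leukemia group, 14 of them in Pax5+/-;Myd88+/- leukemia, against 45.8% of all genes. The replication genes had no such common low group, with 7 of 21 lowest in leukemia and 7 in WT cells.

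**Figure D2:**
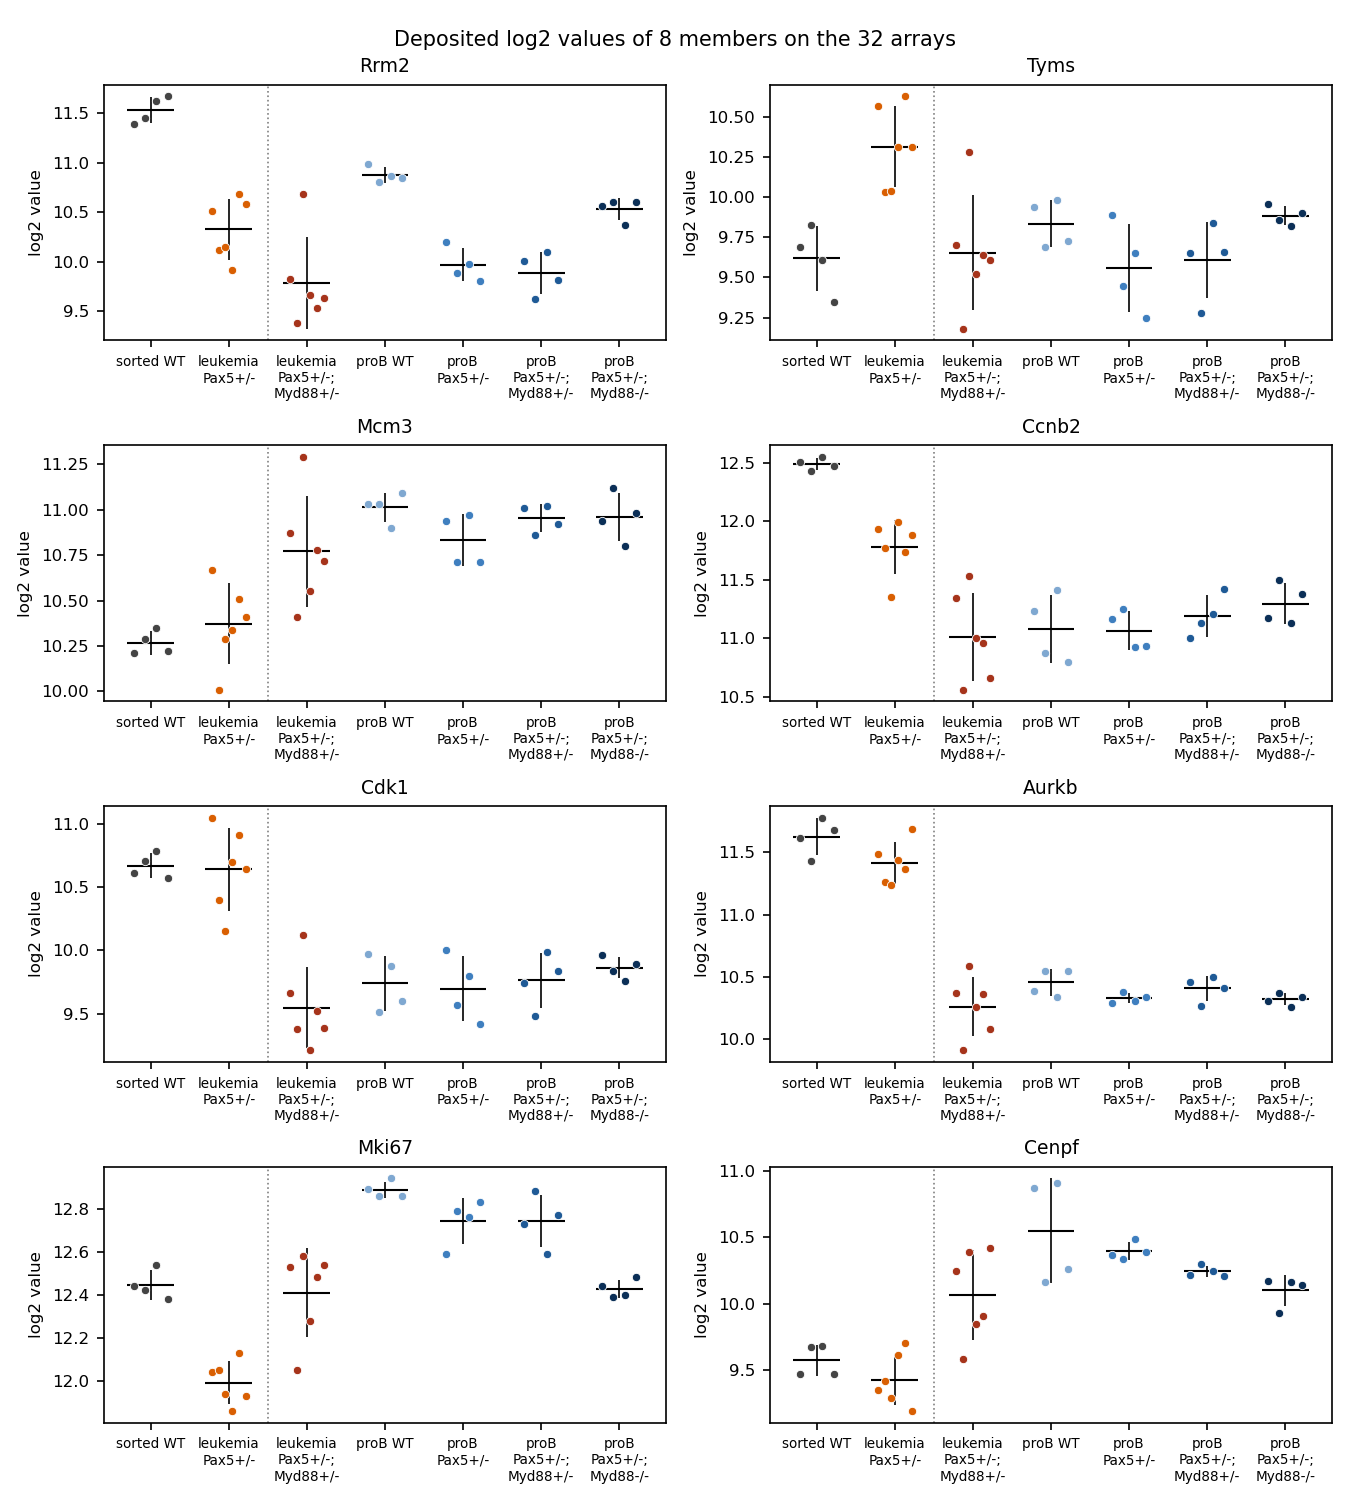
Log2 values of 8 genes on every array (points) with group means (bars) and SD (lines) in the 7 groups, the dotted line dividing sorted WT cells and Pax5+/- leukemias from the other groups. Rrm2 is highest on the sorted WT arrays, 11.39 to 11.67, and Cdk1 and Aurkb are higher on all arrays left of the line than on any to its right.

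Within the first set of arrays, the Pax5+/- leukemias can be set against the sorted WT cells. No sort is named for the leukemic marrow, so leukemia and cell preparation cannot be told apart here either. The cyclins Ccna2 and Ccnb2, the marker Mki67 and the reductase subunit Rrm2 were lower in leukemia, and Tyms, which makes thymidylate, was higher. That is 1 gene of 44 that rose and 4 that fell, where 12% of all genes rose and 13.9% fell. Rrm2 measured 11.39, 11.45, 11.62 and 11.67 in the sorted cells and 9.92, 10.33 and 10.68 (lowest, median and highest of 6) in the leukemias. The groups did not overlap, and the difference was -1.21 ± 0.21 (SE, adjusted p = 0.00081). Ccnb2 measured 12.51, 12.43, 12.55 and 12.47 against 11.35, 11.83 and 11.99, a difference of -0.71 ± 0.17 (adjusted p = 0.00617). Ccna2 measured 12.18, 12.16, 12.28 and 12.17 against 11.31, 11.60 and 11.76, a difference of -0.62 ± 0.11 (adjusted p = 0.00069). For both cyclins every leukemia lay below every sorted sample. Mki67 measured 12.44, 12.42, 12.54 and 12.38 against 11.86, 11.99 and 12.13, which gave -0.45 ± 0.09 (adjusted p = 0.0025), again with no overlap. Tyms measured 9.69, 9.83, 9.61 and 9.35 in the sorted cells against 10.03, 10.31 and 10.63, all above them, a difference of 0.70 ± 0.18 (adjusted p = 0.00974).

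Cdk1, the partner of these cyclins, measured 10.61, 10.71, 10.79 and 10.57 in the sorted cells and 10.15, 10.67 and 11.05 in the Pax5+/- leukemias. These overlap, with a difference of -0.03 and a 95% interval from -0.40 to 0.35. Most of the other mitosis genes had small values below 0, so that 21 of 23 were below 0 with a class median of -0.19, where the median of all genes was -0.04. The nearest to the threshold were the checkpoint kinase Bub1b at -0.34 (adjusted p = 0.0748) and the spindle factor Tpx2 at -0.38 (adjusted p = 0.0919). The replication genes lay the other way, 14 of 21 above 0 with a median of 0.10, led after Tyms by the helicase subunits Mcm6 at 0.39 (adjusted p = 0.0785) and Mcm2 at 0.26 (adjusted p = 0.152). Natural killer cell markers were lower in these leukemias (8 of 9 genes, array means 5.91 to 6.58 against 8.03 to 8.82), as were erythroid markers (8 of 10, 6.49 to 7.07 against 7.54 to 7.94), while macrophage markers were higher (7 of 12, 7.87 to 8.74 against 6.40 to 6.53). Stromal and feeder markers were higher as well (8 of 13, 7.38 to 8.37 against 6.28 to 6.39), as were 4 of 6 platelet and 1 of 14 granulocyte markers, and 4 of 6 T-cell and 2 of 11 B-cell precursor markers were lower. The part of these markers in the differences was not tested. Without the 4 leukemias that were low in B-cell precursor markers, 4 of the genes rose and 4 fell. The shares of all genes were not counted without them, so nothing is read from this change.

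Within the second set, Pax5+/-;Myd88+/- leukemias can be set against proB cells of the same genotype. The leukemic marrow had no named sort, whereas the proB cells were B220+ cells per the labels and cultured per the methods. Leukemia and cell preparation therefore cannot be told apart here. Sex can differ as well, as Xist was 5.39 to 12.8 in these leukemias and 12.4 to 12.52 in these proB cells. None of the 44 genes was called higher and 8 fell, where 6.28% of all genes rose and 8.99% fell. These were Plk1, Bub1, Nusap1, Cenpe, Aurka, Tpx2 and Mki67 of the 23 mitosis genes and Cdt1, the licensing factor, of the 21 replication genes. By role they were 3 of 6 mitotic kinases and passengers, 2 of 6 checkpoint and kinetochore genes and 1 of 4 spindle and midzone genes, with Mki67 and Cdt1. Plk1, the kinase that matures the spindle poles, measured 10.95, 10.91, 10.96 and 11.09 in proB cells and 9.93, 10.43 and 10.71 in the leukemias, which lay all below them. The difference was -0.61 ± 0.12 (adjusted p = 0.00089). Aurka, the spindle pole aurora kinase, measured 9.65, 9.55, 9.77 and 9.72 against 9.12, 9.23 and 9.51, a difference of -0.41 ± 0.10 (adjusted p = 0.00405), without overlap. Cenpe, a kinetochore motor, fell by 0.50 ± 0.15 (adjusted p = 0.0224) and Mki67 by 0.33 ± 0.08 (adjusted p = 0.00438), both without overlap. Bub1 measured 10.30, 10.10, 10.37 and 10.18 in proB cells and 9.20, 9.61 and 10.21 in the leukemias. The groups overlapped, through leukemias 1 and 3, and the difference was -0.58 ± 0.15 (adjusted p = 0.0101). Nusap1, which bundles spindle microtubules, fell by 0.56 ± 0.17 (adjusted p = 0.0299), also with overlap.

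The other mitosis genes were below 0 as well, all 23 with a class median of -0.22, against -0.05 for all genes, while the replication genes had a median of -0.13. Among the genes that did not pass the test were Kif20a, a motor of the spindle midzone, at -0.35 (adjusted p = 0.0893), Cdca8 at -0.22 (adjusted p = 0.0903), E2f1 at -0.33 (adjusted p = 0.0688) and Ccne1 at 0.30. Cdt1 fell by 0.44 ± 0.15 (adjusted p = 0.0493). Macrophage markers were higher in the leukemias (9 of 12 genes, array means 6.71 to 9.07 against 6.26 to 6.35), 5 of 14 granulocyte, 2 of 10 erythroid, 2 of 6 platelet and 2 of 13 stromal and feeder markers were higher and 2 of 11 B-cell precursor markers lower, and their part was not tested. Without the 4 leukemias low in B-cell precursor markers, of which replicates 2 and 4 belong to this comparison, 1 gene rose and 3 fell, the mitosis median was -0.09 with 22 of 23 below 0, and the replication median turned to 0.03. Without the Pax5+/-;Myd88+/- leukemia replicate 2, 4 genes were called, and without replicate 3, 15. Leaving out a proB array gave 4 or 5. The shares of all genes called were not counted with any of these arrays left out. This comparison and that of the Pax5+/- leukemias share no array. Their differences had the same sign for 21 of 23 mitosis genes (91.3%) and 11 of 21 replication genes (52.4%), against 64.8% of all genes, and Mki67 was the gene that fell in both, 1 of 4 (25.0%) and 1 of 8 (12.5%) of those that fell. For mitosis the count of shared signs follows from the genes below 0 in each comparison. The share of all genes that fell in both was not counted. The sizes of the differences correlated at r = 0.03 (Spearman's rho 0.15) over the mitosis genes and at 0.22 (0.33) over the replication genes, against 0.27 (0.26) over all genes.

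**Figure D3:**
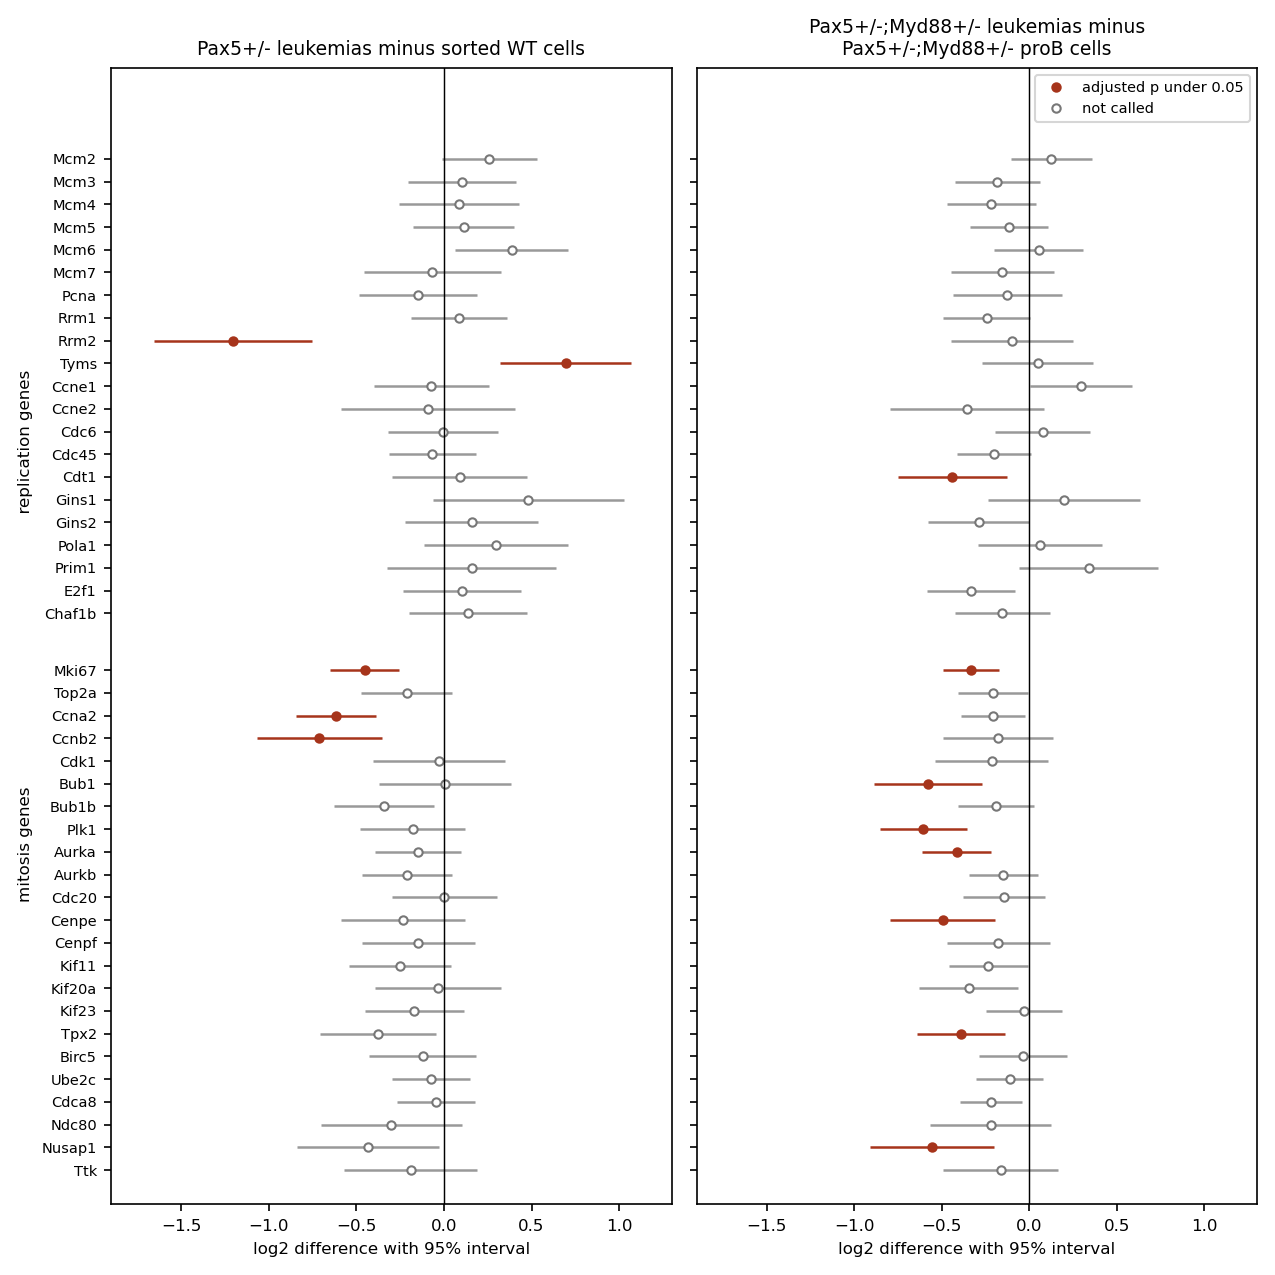
Log2 differences with 95% intervals of all 44 genes for Pax5+/- leukemias minus sorted WT cells (left) and Pax5+/-;Myd88+/- leukemias minus proB cells of that genotype (right), filled where the adjusted p was under 0.05. Mitosis genes lie below 0 in both panels, 21 of 23 on the left and all 23 on the right, and replication genes lie on either side.

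The remaining leukemia comparisons cross the 2 sets of arrays. Pax5+/-;Myd88+/- leukemias differed from sorted WT cells in 20 of the 44 genes, with 2 higher (10.9% of all genes) and 18 lower (19.1% of all genes). Of the mitosis genes 13 fell, and the largest falls were those of Ccnb2 at -1.48 ± 0.17 (adjusted p = 6.7e-06) and Aurkb, the kinase of the chromosomal passengers, at -1.37 ± 0.12 (adjusted p = 5.15e-07). All 5 genes of the group of mitotic cyclins, Cdk1, Cdc20 and Ube2c fell, with a median of -1.06. Cdk1 measured 9.21, 9.46 and 10.12 in these leukemias, below the 4 sorted samples, and fell by 1.12 ± 0.18 (adjusted p = 0.000147). Ube2c, the ubiquitin enzyme that feeds the anaphase-promoting complex, measured 10.48, 10.58, 10.60 and 10.47 in the sorted cells against 9.22, 9.47 and 9.71, a fall of 1.06 ± 0.10 (adjusted p = 1.66e-06). Cenpf rose by 0.49 ± 0.15 (adjusted p = 0.0219). Birc5 and the kinetochore gene Ndc80, both at -0.18, did not pass the test.

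Of the replication genes, Rrm2 measured 9.38, 9.65 and 10.68 in the Pax5+/-;Myd88+/- leukemias and was 3.35-fold lower than in the sorted cells (-1.75 ± 0.21, adjusted p = 1.32e-05). Ccne1 fell by 0.86 ± 0.15 (adjusted p = 0.000474) and Ccne2 by 0.95 (adjusted p = 0.0056), while Pcna, the sliding clamp, fell by 0.55 and Gins2 by 0.51. No licensing gene fell, and Mcm3 rose: it measured 10.21, 10.29, 10.35 and 10.22 in the sorted cells and 10.41, 10.75 and 11.29 in the leukemias, all above them, a difference of 0.50 ± 0.14 (adjusted p = 0.0151). E2f1 at -0.43 (adjusted p = 0.0514) and Mcm5 at 0.31 (adjusted p = 0.0989) did not pass. Without the 4 leukemias named above, 5 genes rose and 13 fell, where the shares of all genes were not counted, and the replication median turned from -0.09 to 0.07. Erythroid markers were lower in these leukemias in 7 of 10 genes and natural killer markers in 8 of 9, with macrophage markers higher in 5 of 12 and stromal and feeder markers in 5 of 13. Of the 11 B-cell precursor markers 1 was higher and 2 were lower. Their part was not tested.

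Between the leukemia genotypes, Pax5+/-;Myd88+/- minus Pax5+/-, 4 genes rose (15.2% of all genes) and 17 fell (17.6% of all genes). The same 5 cyclin, Cdk1, Cdc20 and Ube2c genes fell here, as did all 3 genes of entry into S phase. Aurkb measured 11.24, 11.41 and 11.69 in the Pax5+/- leukemias and 9.91, 10.31 and 10.59 with the Myd88 deletion, which did not overlap, and fell by 1.15 ± 0.11 (adjusted p = 1.35e-06). Cdk1 fell by 1.10 ± 0.16 (adjusted p = 7.93e-05) and Ube2c by 0.99 ± 0.09 (adjusted p = 1.51e-06), each without overlap. Ccne1 measured 9.41, 9.83 and 10.26 against 8.68, 9.09 and 9.32, also apart, and fell by 0.79 ± 0.14 (adjusted p = 0.00043). Tyms fell by 0.66 (adjusted p = 0.00455) and Rrm2 by 0.54 (adjusted p = 0.0382), with groups that overlap, as did Ccne2 by 0.86, Gins2 by 0.67 and Ccnb2 by 0.77. Rising genes were Cenpf at 0.64 (adjusted p = 0.00209), Tpx2 at 0.44 (adjusted p = 0.0242), Mki67 at 0.42 (adjusted p = 0.00124) and Mcm3 at 0.40 (adjusted p = 0.0271). Gins1 at -0.57 (adjusted p = 0.0654), Mcm2 at -0.28, Cenpe at 0.38 (adjusted p = 0.0634) and Plk1 at -0.24 did not pass. Mki67 measured 12.05, 12.51 and 12.58 in the Pax5+/-;Myd88+/- leukemias, of which only the lowest lay within the range of the Pax5+/- leukemias, 11.86 to 12.13. Fitted together with the proB cells, the difference by Myd88 allele was itself larger or smaller in leukemia than in proB cells for 14 of the 44 genes (31.8%), against 20.5% of all genes. Without the 4 leukemias low in B-cell precursor markers, 5 of the 44 genes rose and 10 fell, with medians of -0.21 for replication and -0.13 for mitosis. The shares of all genes that rose or fell were not counted there. Of the 11 B-cell precursor markers 4 were higher in the Pax5+/-;Myd88+/- leukemias and 1 was lower, and 4 of 13 stromal and feeder and 2 of 6 platelet markers were lower, whose part was not tested.

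Cdk1, Aurkb and Ube2c were higher on all 10 arrays of sorted cells and Pax5+/- leukemia than on any other array, 3 of 44 genes (6.82%) against 3.10% of all probesets, and none of the 44 was lower on all 10, against 3.01%. With so few genes nothing is read from these shares, and the genes are named for their values alone. Cdk1 lay between 9.42 and 10 in every proB array, whichever the genotype, Aurkb between 10.26 and 10.55 and Ube2c between 9.42 and 9.80. The values of the Pax5+/-;Myd88+/- leukemias lay across or beside those ranges, with Cdk1 as low as 9.21. For these genes tumour genotype, cell preparation and what divides the sets cannot be told apart.

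The WT proB cells and the sorted WT cells also lie in different sets, and hold no leukemia. They differ in cell preparation and sex too, which cannot be told apart here from what divides the sets. WT proB cells minus sorted WT cells gave 12 genes higher (20.9% of all genes) and 11 lower (21.2% of all genes), and Ccnb2 (-1.41 ± 0.17, adjusted p = 8.14e-08), Aurkb (-1.17), Cdk1 (-0.93) and Ube2c (-0.90) again fell, each without overlap. Cenpf rose by 0.98 ± 0.16 (adjusted p = 1.03e-05): it measured 9.47, 9.67, 9.68 and 9.47 in the sorted cells and 10.87, 10.16, 10.91 and 10.26 in the proB cells. These proB values lie in close pairs, arrays 1 and 3 and arrays 2 and 4, which are the near-identical WT arrays (r = 0.9982 and 0.9979). The p-values of this comparison count them as 4 replicates. Cenpe rose by 0.74, Tpx2 by 0.55 and Mki67 by 0.44. Of the replication genes, Mcm3 rose by 0.75, the polymerase subunit Pola1 by 0.71, Cdc45 by 0.44 and Mcm4 by 0.42, while Rrm2 fell by 0.66, Ccne1 by 0.45 and Mcm7 by 0.41. Pcna at -0.37, Gins2 at -0.32, Kif20a at 0.35 and Plk1 at 0.29 did not pass. This comparison and that between the leukemia genotypes share no array, and over the 44 genes their differences correlated at r = 0.85 (Spearman's rho 0.84), with 38 (86.4%) on the same side of 0, against r = 0.46 and 68.4% over all genes. These are correlations across genes, which are not independent replicates. Of the 17 genes that fell between the leukemia genotypes 10 (58.8%) were among the 11 that fell here, 90.9% of those, and all 4 that rose also rose here. The share of all genes called in both was not counted, so nothing particular to these genes is read from this overlap.

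**Figure D4:**
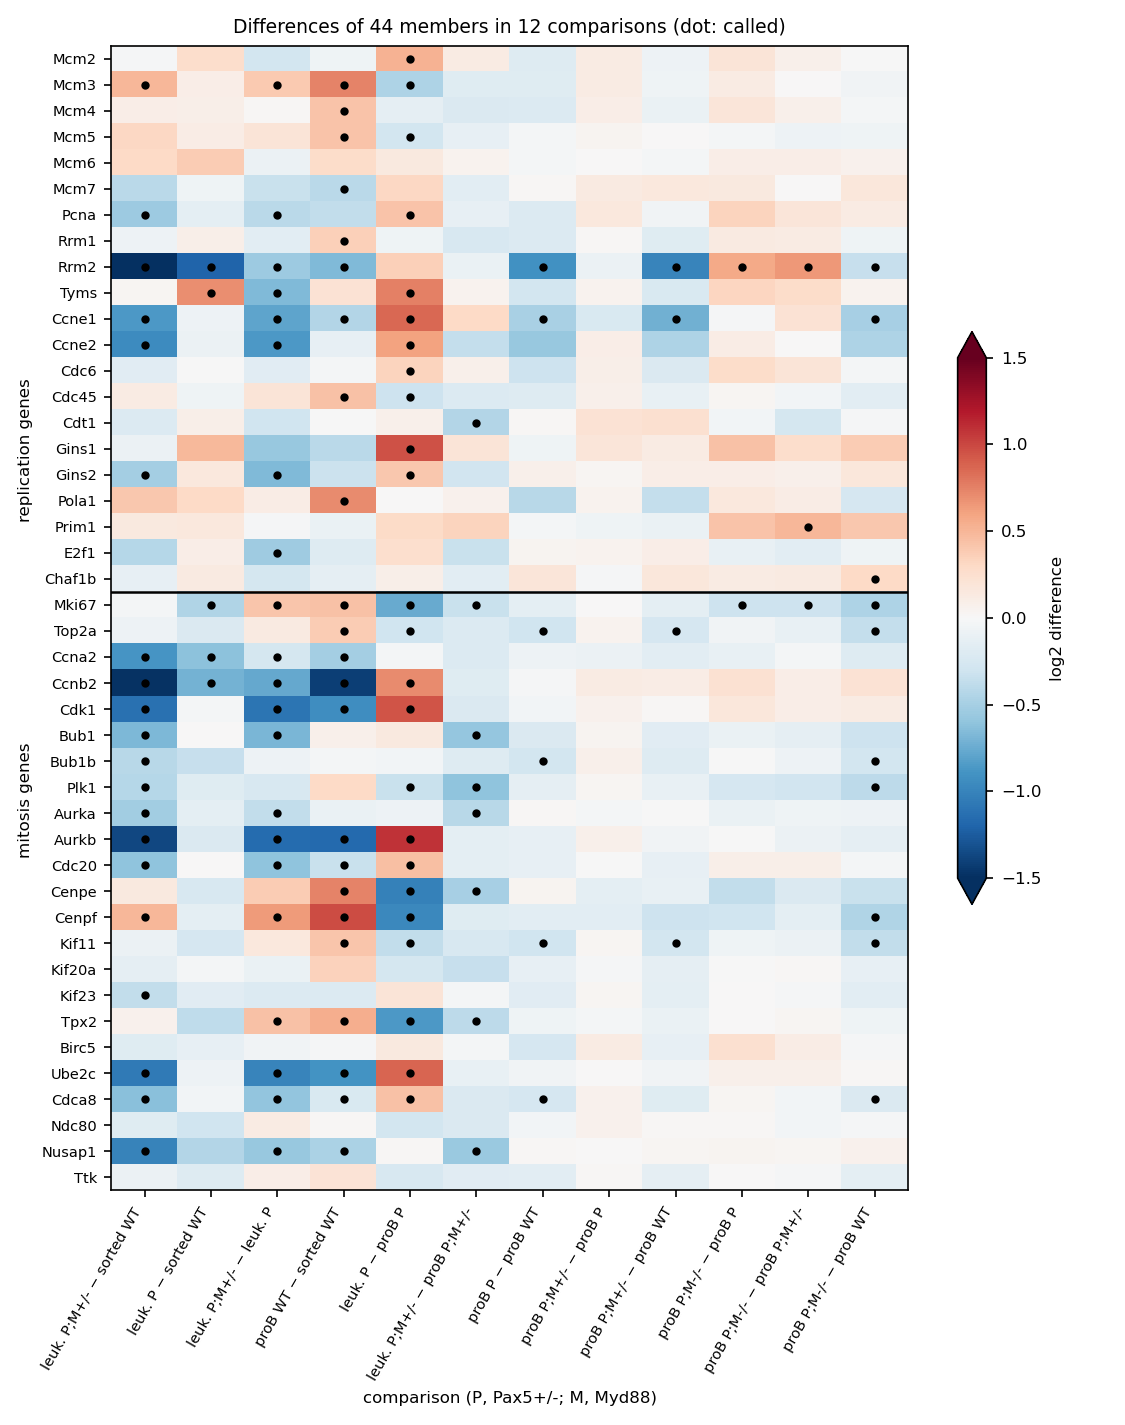
Log2 differences of the 44 genes in the 12 comparisons as colours capped at 1.5 either way, a dot marking an adjusted p under 0.05. Cdk1, Ccnb2, Aurkb and Ube2c have the same colour in the comparison of the leukemia genotypes and in that of WT proB with sorted WT cells, and the 6 comparisons between proB genotypes have from 0 to 10 dots each.

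Pax5+/- leukemias minus Pax5+/- proB cells, which cross the sets the other way, gave 14 genes higher (24.0% of all genes) and 10 lower (29.1% of all genes). Aurkb was higher by 1.09, Cdk1 by 0.94, Ube2c by 0.88 and Ccnb2 by 0.71, and Cenpe was lower by a difference of -1.02, Cenpf of -0.97, Tpx2 of -0.86 and Mki67 of -0.75. Replication genes that rose were led by the GINS subunit Gins1 at 0.95, Ccne1 at 0.86 and Tyms at 0.76, with Ccne2 at 0.60, and those that fell were Mcm3 at -0.46, Cdc45 at -0.32 and Mcm5 at -0.28. Rrm2 at 0.36, Mcm7 at 0.32, Kif20a at -0.27 and Kif23, a midzone motor, at 0.20 did not pass. Granulocyte markers were higher in 13 of 14 genes, macrophage markers in 9 of 12 and platelet markers in 6 of 6, while the macrophage marker Marco was lower at -0.49. The erythroid markers Epor, Alas2 and Slc4a1, the natural killer markers Klrd1 and Nkg7 and the T-cell marker Cd4 were higher, and the T-cell marker Cd8a was lower. Of the B-cell precursor markers 7 of 11 were lower and 1 higher (array means 9.08 to 11.5 against 11.8 to 11.9). The part of these markers was not tested. In WT proB cells against sorted cells, natural killer markers were lower in 9 of 9 genes, erythroid markers in 9 of 10 (array means 6.34 to 6.42 against 7.54 to 7.94), granulocyte markers in 6 of 14 (6.09 to 6.16 against 7.03 to 9.36) and T-cell markers in 4 of 6, with stromal and feeder markers higher in 9 of 13 (array means 6.88 to 7.98 over all proB arrays against 6.28 to 6.39). Of the B-cell precursor markers Vpreb1 was higher there by 2.94 and Vpreb2 by 2.01, Cd79b was lower at -2.285, and the rest did not pass. The part of all these markers was likewise not tested.

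Between the proB genotypes, from 0 to 10 of the 44 genes passed the test in a comparison, and Rrm2 passed in 5 of the 6 comparisons, with the largest difference in 4 of them. It measured 10.99, 10.80, 10.86 and 10.84 in WT proB cells and 10.20, 9.89, 9.98 and 9.81 in Pax5+/- proB cells. In Pax5+/-;Myd88+/- proB cells it measured 10.01, 9.62, 10.10 and 9.82, and with Myd88-/- 10.56, 10.60, 10.37 and 10.60. WT cells lay above all others, Pax5+/-;Myd88-/- cells came next, and the remaining pair of genotypes overlapped. Ccne1 measured 9.36, 9.57, 9.33 and 9.58 in WT cells and 8.49 to 9.22 in the 12 arrays of the other genotypes, all below WT.

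Pax5+/- minus WT proB cells gave no gene higher (4.18% of all genes) and 6 lower (3.18% of all genes). Rrm2 fell by 0.90 ± 0.10 (adjusted p = 1.4e-05) and Ccne1 by 0.49 ± 0.13 (adjusted p = 0.0269), and the motor Kif11, the topoisomerase Top2a, Bub1b and the passenger protein Cdca8 fell by 0.25 to 0.30. All 6 were without overlap, which was not counted over all genes. Of the 44 genes 36 were below 0, among them Ccne2 at -0.57, Mcm4 at -0.21, Birc5 at -0.25 and Kif23 at -0.17, which did not pass. Among all genes with a known genomic span, 3574 of the 7032 under 10 kb and 3817 of the 7042 over 30 kb were below 0. Pax5+/-;Myd88+/- minus WT gave none higher (3.55% of all genes) and 4 lower (2.77% of all genes): Rrm2 at -0.99 ± 0.10 (adjusted p = 4.23e-06), Ccne1 at -0.72 (adjusted p = 0.00159), Kif11 at -0.27 and Top2a at -0.25. Ccne2 at -0.47, Pola1 at -0.36, Bub1b at -0.20 and Cdca8 at -0.18 did not pass. Pax5+/-;Myd88-/- minus WT gave 1 higher (8% of all genes), Chaf1b at 0.30 (adjusted p = 0.0424), and 9 lower (6.63% of all genes). Those 9 were Ccne1, Rrm2, Mki67, Cenpf, Plk1, Kif11, Top2a, Bub1b and Cdca8, among them Mki67 at -0.46 (adjusted p = 0.000105), Cenpf at -0.45 (adjusted p = 0.0311), Plk1 at -0.40 (adjusted p = 0.00846) and Kif11 at -0.36 (adjusted p = 0.00248). Prim1 at 0.40, Gins1 at 0.38, Cenpe at -0.33 and Ccna2 at -0.19 did not pass. Of these 9 genes Ccne1, Mki67, Cenpf, Plk1, Kif11 and Top2a differed by more than Rrm2, which was at -0.34, and 3 of 13 stromal and feeder markers were lower, whose part was not tested. These 3 comparisons share the WT arrays. With the near-identical WT arrays averaged, they gave 3, 2 and 5 genes in place of 6, 4 and 10, and without Pax5+/- proB replicate 2 the first gave 3. Without WT replicate 1 or 3, or without Pax5+/-;Myd88+/- replicate 2 or 4, the second gave 2.

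In Pax5+/-;Myd88+/- minus Pax5+/- proB cells none of the 44 genes passed: 0 rose (2.31% of all genes) and 0 fell (2.28% of all genes) in limma's test, 0 also passed at an unadjusted p under 0.05, and the differences ran from -0.23 to 0.22. Those with the smallest p were Cdt1 at 0.22 (adjusted p = 0.479), Mcm7 at 0.14, Birc5 at 0.12 and Aurkb at 0.08. With both alleles gone, Pax5+/-;Myd88-/- minus Pax5+/- gave 1 higher (6.02% of all genes), Rrm2 at 0.56 (adjusted p = 0.00164), and 1 lower (5.53% of all genes), Mki67 at -0.32 (adjusted p = 0.00427). Pax5+/-;Myd88-/- minus Pax5+/-;Myd88+/- gave 2 higher (5.47% of all genes), Rrm2 at 0.65 (adjusted p = 0.000569) and the primase Prim1 at 0.50 (adjusted p = 0.0378), and 1 lower (4.67% of all genes), Mki67 at -0.32 (adjusted p = 0.0049). Prim1 measured 9.46, 9.20, 9.75 and 9.58 with 1 Myd88 allele and from 9.86 to 10.07 with none. Mki67 measured 12.73, 12.88, 12.59 and 12.77 with 1 allele and 12.44, 12.39, 12.40 and 12.48 with none, so neither gene overlapped. Against Pax5+/- cells, Gins1 at 0.45, Prim1 at 0.43, Cenpe at -0.37 and Plk1 at -0.26 did not pass, nor did Plk1 at -0.28, Cdt1 at -0.26, Cenpe at -0.22 and E2f1 at -0.16 against Pax5+/-;Myd88+/- cells. Without Pax5+/- proB replicate 1, the comparison of Pax5+/-;Myd88-/- with Pax5+/- gave 10 genes in place of 2.

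The leukemias of 1 genotype were unlike each other in these genes. Of the 6 Pax5+/-;Myd88+/- leukemias, replicate 2 was the lowest for 15 of 21 replication and 19 of 23 mitosis genes, and replicate 3 was the highest for 18 and 19. The scores of the 6 were -0.00, -0.51, 0.32, -0.45, -0.03 and -0.05 for replication and -0.00, -0.60, 0.19, -0.38, -0.32 and -0.30 for mitosis, in the order of the replicates. Replicate 4 thus had the second lowest score in both classes. Replicates 2 and 4 also had the lowest B-cell precursor means (10.1 and 9.94, against 10.9 to 11.7 in the others) and the highest macrophage means (9.07 and 8.82), and replicate 2 the highest erythroid mean (8.15, against 6.43 to 6.68). The part of these in the scores was not tested. Among the Pax5+/- leukemias, replicate 2, with a B-cell precursor mean of 9.08, was the lowest for 14 of 21 replication genes, while replicate 3 was the lowest for 9 of 23 mitosis genes and replicate 5 the highest for 12.

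Lists of further genes of the same processes were counted beside the 44, of which 49 of 50 replication genes, 61 of 63 mitosis genes and 20 of 20 regulators were measured. In Pax5+/- leukemia against sorted WT cells, where 12% of all genes rose and 13.9% fell, 10 replication genes rose and 4 fell, 2 mitosis genes rose and 17 fell, and 1 regulator rose and 11 fell. The mitosis genes that fell were led by the phosphatase Cdc25b, which activates Cdk1, at -1.80, the kinase Nek2 at -0.71 and Cdca3 at -0.68. Tk1, the thymidine kinase, rose by 1.07, the nuclease Dna2 by 0.93 and the helicase Hells by 0.71, and Dck, deoxycytidine kinase, was at -1.20. The regulators E2f2 at -2.06, Rb1, the retinoblastoma protein, at -1.42 and Tfdp2 at -1.21 fell. In Pax5+/-;Myd88+/- leukemia against proB cells, where 6.28% of all genes rose and 8.99% fell, no replication gene rose and 8 fell, 1 mitosis gene rose and 21 fell, and no regulator rose and 6 fell. Ckap2l fell by 0.72, Dlgap5 by 0.71, E2f2 by 0.65 and Dck by 0.86 there, and the securin gene Pttg1 rose by 0.94.

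Across the sets, Pax5+/-;Myd88+/- leukemia against sorted WT cells gave 7 replication genes that rose and 8 that fell, 4 and 24 mitosis genes and 1 and 12 regulators, where 10.9% of all genes rose and 19.1% fell. Between the leukemia genotypes (15.2% and 17.6% of all genes) these counts were 4 and 10 for replication, 10 and 18 for mitosis and 1 and 5 for regulators. In WT proB against sorted WT cells (20.9% and 21.2%) they were 22 and 7, 19 and 16, and 4 and 10. In Pax5+/- leukemia against proB cells (24.0% and 29.1%) they were 15 and 10, 9 and 28, and 3 and 4.

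Against WT proB cells, Pax5+/- proB cells (4.18% of all genes rose and 3.18% fell) had no gene of replication or mitosis that rose, 5 and 6 that fell, and 2 regulators that rose and 3 that fell. With 1 Myd88 allele gone (3.55% and 2.77%) 2 replication and 5 mitosis genes fell, none rose, and 1 regulator moved each way. With both gone (8% and 6.63%) 7 replication genes fell and none rose, 22 mitosis genes fell and 2 rose, and 6 regulators fell and 3 rose. Between Pax5+/-;Myd88+/- and Pax5+/- proB cells (2.31% and 2.28%) 2 replication genes rose, 1 mitosis gene moved each way and 1 regulator rose. Pax5+/-;Myd88-/- against Pax5+/- proB cells (6.02% and 5.53%) gave 3 replication genes that rose, 1 mitosis gene that rose and 4 that fell, and 1 regulator that rose and 2 that fell. Against proB cells that keep 1 Myd88 allele (5.47% and 4.67%) 2 replication genes rose and 3 fell, 1 mitosis gene rose and 5 fell, and 1 regulator rose and 4 fell.

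The differences across the 2 sets of arrays also varied with the length of the genes. Between the leukemia genotypes, the 12 genes with a genomic span under 10 kb were all below 0, with a median of -0.47, whereas of the 13 genes spanning over 30 kb 9 were above 0, with a median of 0.12. In WT proB against sorted WT cells, 11 of the 12 short genes were below 0, with a median of -0.39, and 11 of the 13 long ones above 0, with a median of 0.38. In Pax5+/-;Myd88+/- leukemia against sorted WT cells the 12 short genes were again below 0, with a median of -0.57, and 6 of the 13 long ones above it (r = 0.53), and in Pax5+/- leukemia against proB cells 10 of the 12 short genes were above 0 and 9 of the 13 long ones below it. Over the 44 genes the difference correlated with the log10 of the span at r = 0.53 between the leukemia genotypes, at 0.59 for WT proB minus sorted WT cells and at -0.48 for Pax5+/- leukemias minus proB cells, and at 0.15 and -0.02 in the leukemia comparisons within a set. Over 7516 genes with a mean of 8 or more, Spearman's rho was 0.24, 0.15 and -0.27 between the leukemia genotypes, for WT proB minus sorted WT cells and for Pax5+/- leukemias minus proB cells. It was 0.09 for Pax5+/-;Myd88+/- leukemias minus sorted WT cells and as far as -0.23 within a set, for Pax5+/-;Myd88-/- minus WT proB cells. Over all 19916 genes with a span it was 0.06 or less in each of these comparisons that cross the sets. These are descriptions across genes of shared arrays, and what lies behind them was not tested.

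**Figure D5:**
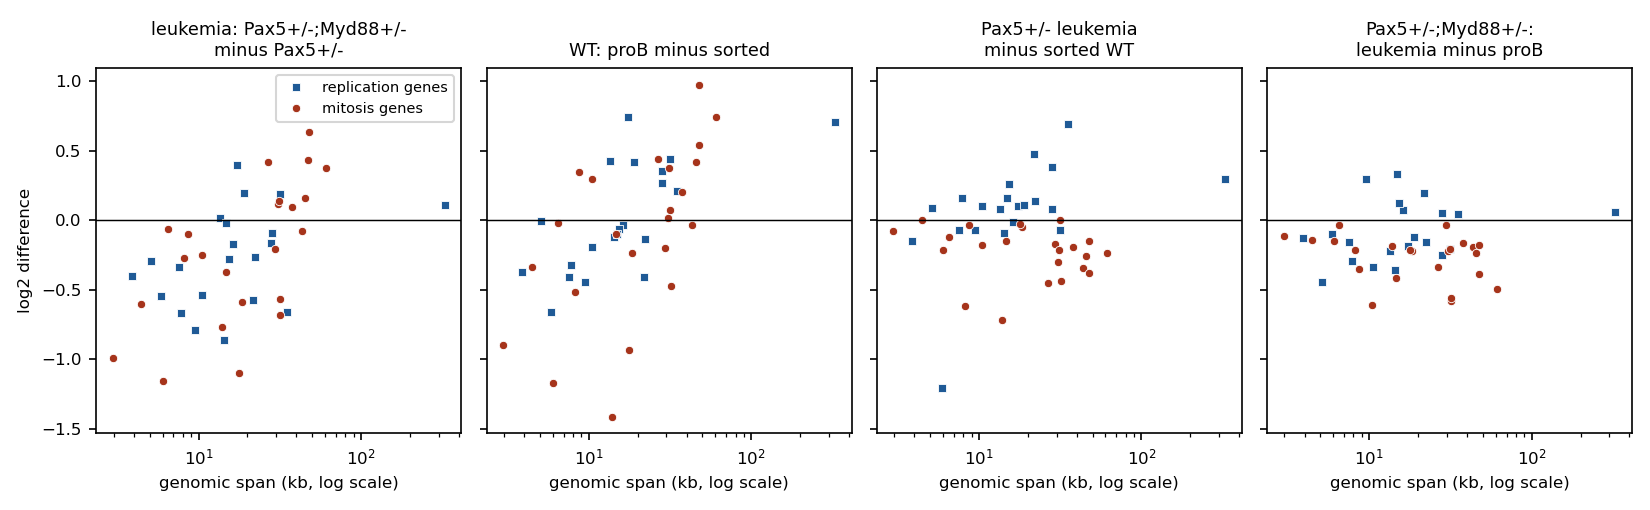
Log2 difference of each of the 44 genes against its genomic span (kb, log axis) in 4 comparisons, replication and mitosis genes marked apart. In the 2 panels that cross the sets, 12 and 11 of 12 short genes lie below 0 and 9 and 11 of 13 long ones above it (r = 0.53 and 0.59), while r is 0.15 and -0.02 in the panels within a set.

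Of the genes measured here, Pcna and Top2a had a further probeset. The 2 Pcna probesets differed by at most 0.03 on any array. The other Top2a probeset measured 4.67 to 6.09 in the sorted cells and Pax5+/- leukemias and 6.89 to 9.55 elsewhere, so that Pax5+/-;Myd88+/- minus Pax5+/- leukemia was 2.92 on it and 0.14 on the probeset used. In Pax5+/- minus WT proB cells it gave -0.57, the direction of the -0.30 of the probeset used. The windows of Cenpf and Mki67, which rose between the leukemia genotypes, held CHR and CCAAT matches, as did those of Ccnb2, Cdk1 and Ube2c printed above, which fell.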

How the data were processed

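Per the labels and the study's methods, total RNA was extracted with Trizol, and 32 mouse arrays, 1 per sample, were scored at the gene level. The values deposited by the authors are log2 signals of 28944 probesets, normalized by RMA in Transcriptome Analysis Console (version 4.0.1), with an annotation on mm10, and were used as they are. RMA brings arrays that are processed together to a common distribution, so a shift of most genes at once could not be seen among them. Whether all 32 arrays were processed together is not stated. In the annotation given, 21789 probesets name 1 gene, 1621 several and 5534 none, and a gene was read from its probeset with the highest mean over all arrays. Every sample's column was used.

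Groups were taken from the labels. Comparisons were tested with limma (version 3.58.1, R 4.3.3, lmFit and eBayes), with Benjamini-Hochberg adjustment over all probesets and a threshold of 0.05. The leukemia and sorted arrays shared a fit, the proB arrays another, and comparisons of leukemia with proB cells, of proB with sorted cells, and the difference between differences used all 32. This was checked on simulated data. The percentages of genes called cover the 19938 genes. All 44 genes are accounted for. For each comparison the text names, per class and direction, up to 4 called genes with the largest difference and up to 2 of those not called with the smallest p, and at most 3 genes per direction of the further lists. The members, the lists and the tests were chosen with earlier results of these data known. Replicate numbers counted as pairing samples only for Pax5+/-;Myd88-/- against WT proB cells, where the deviations of each of the 4 pairs correlated at 0.117 to 0.216. No label pairs these samples, and the choice rests on those correlations alone. The main fit was unpaired in every comparison, this one included, and the replicate number entered only as an alternative. They were also positive for Pax5+/-;Myd88-/- against Pax5+/- proB cells (0.0356 to 0.289) and for Pax5+/- against WT proB cells (0.0104 to 0.124). The study's criteria, other normalizations, filters, sample sets, array weights, the replicate block and leaving out arrays were tried as alternatives. Scores, motif counts and spans are descriptions. Promoters were from RefSeq, and the promoters of 8 genes were not analysed here.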

Additional observations from a re-analysis of the deposited data

Results flagged for a closer look

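Over the 16 genes shown array by array and the 2 class scores, each in 7 groups, 126 sets of 4 or 6 values were checked for a single array far from the rest, and 5 had one, where chance gives about 1 in 20. Rrm2 was 10.68 in 1 Pax5+/-;Myd88+/- leukemia (median of the group 9.65), and Plk1 was 10.31 in 1 Pax5+/- leukemia. Ccna2 was 12.28 in 1 sorted WT sample and 11.39 in 1 Pax5+/-;Myd88-/- proB sample, and Cenpf was 9.93 in 1 sample of the latter group.

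The difference by Myd88 allele (Pax5+/-;Myd88+/- minus Pax5+/-) was set against itself in leukemias and in proB cells, in the fit of all 32 arrays, and 14 of the 44 genes passed limma's test of that difference. For mitosis genes, the value in leukemias minus that in proB cells was -1.23 for Aurkb, -1.16 for Cdk1, -0.99 for Ube2c, -0.89 for Ccnb2, -0.72 for Bub1, -0.66 for Cdca8 and -0.60 for Cdc20. It was 0.79 for Cenpf and 0.42 for Mki67. For replication genes it was -0.96 for Ccne2, -0.71 for Tyms, -0.69 for Gins2, -0.59 for E2f1 and -0.56 for Ccne1. The leukemia difference crosses the 2 sets of arrays and the proB difference does not, so genotype and array set cannot be told apart in these values. Sex cannot be told apart from them either. Xist was 5.61 to 5.97 in Pax5+/- and 12.4 to 12.52 in Pax5+/-;Myd88+/- proB cells, and 5.44 to 9.72 and 5.39 to 12.8 in the leukemias of the same genotypes.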

How the results depend on the processing

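Directions held in all 132 named differences under every alternative. Shares of all genes were not counted under the alternatives, so the counts of genes called there have no background beside them. In order of Pax5+/-;Myd88+/- leukemia minus sorted WT, Pax5+/- leukemia minus sorted WT, and the leukemia genotypes, the genes called were 20, 5 and 21. At the study's criteria (unadjusted p under 0.05 and a fold above 2) they were 6, 1 and 2, WT proB minus sorted WT and Pax5+/- leukemia minus proB cells gave 2 each in place of 23 and 24, and the proB comparisons and Pax5+/-;Myd88+/- leukemia minus proB cells gave 0.

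Pax5+/- leukemia minus sorted WT gave 8 with all arrays in 1 fit or only the groups compared, 11 after a further quantile normalization, 9 with array weights, and 8 without the 4 leukemias low in B-cell precursor markers, an alternative chosen after seeing the data. Pax5+/-;Myd88+/- leukemia minus proB cells gave 8, and 2 with only the groups compared, 16 after quantile normalization and 4 without the 4 leukemias.

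With all arrays in 1 fit, Pax5+/-, Pax5+/-;Myd88+/- and Pax5+/-;Myd88-/- minus WT proB cells gave 1, 2 and 3 in place of 6, 4 and 10, and with near-identical WT arrays averaged 3, 2 and 5. Arrays of other genotypes were not averaged. The second gave 2 with only its own groups. Pax5+/-;Myd88-/- minus Pax5+/- proB cells gave 2, and 1 with all arrays, 5 with only the groups compared, 7 after quantile normalization, 4 with a filter at a mean of 6 and 10 with array weights. Pax5+/-;Myd88-/- minus Pax5+/-;Myd88+/- gave 3, and 8 after quantile normalization.

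With the replicate number as a block, the Pax5+/-;Myd88-/- comparison with WT, where the numbers were counted as pairing samples, gave 13 in place of 10. No label pairs samples in any comparison. Elsewhere the block gave 7 in place of 4 for Pax5+/-;Myd88+/- minus WT, and 5 each in place of 2 and 3 for Pax5+/-;Myd88-/- minus Pax5+/- and minus Pax5+/-;Myd88+/-. The interaction gave 17 in place of 14, and counts elsewhere stayed within 1.5 times.

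Leaving out each array in turn gave 15 to 21, 5 to 6 and 16 to 25 for the leukemia comparisons in the order above, 17 to 21 for WT proB minus sorted WT, 19 to 25 for Pax5+/- leukemia minus proB cells, 4 to 15 for Pax5+/-;Myd88+/- leukemia minus proB cells and 11 to 20 for the interaction. Against WT proB cells it gave 3 to 8, 2 to 5 and 7 to 10, between Pax5+/-;Myd88+/- and Pax5+/- cells 0 to 0, and for Pax5+/-;Myd88-/- 2 to 10 against Pax5+/- and 2 to 3 against Pax5+/-;Myd88+/-. The cause of these moves was not tested. The number of arrays limits the precision.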
